A study of Mus musculus with 6 samples.

Results

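Described here are the genes of 5 reductases that can pass electrons to paraquat (Por, Cyb5r1, Cyb5r3, Cyb5r4 and Xdh), with Atp7a and Slc45a4. Loss of Atp7a, Slc45a4 or Por protects cells from the compound. The 7 genes were chosen by name, with earlier results of these data known, and all were among the 24421 genes of the expression table. RNA was sequenced from E14 mouse embryonic stem cells, wild type (n = 2 libraries) or Pml-/- (n = 2 libraries), and both genotypes had received 10 µM paraquat for 15 h. The cells grew in serum with leukemia inhibitory factor and 2 kinase inhibitors, PD0325901 (against MEK) and CHIR99021 (against GSK3). No untreated library was analysed here, so the comparison asks how the genotypes differed under paraquat and not how these genes answered to it. The labels do not say whether the Pml-/- cells are 1 clone, nor whether a genotype's libraries are separate cultures. All p-values therefore rest on the spread between these libraries, which may be technical.

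Paraquat is a bipyridinium herbicide that cycles between an oxidised and a radical form. A flavoprotein reductase gives it an electron from NADPH or NADH, the radical hands that electron to oxygen to make superoxide, and the oxidised form is ready to be reduced again. Cytochrome P450 oxidoreductase, the product of Por, is among the best known donors, and the NADH-cytochrome b5 reductases and xanthine oxidoreductase are flavoproteins that can also reduce it. ATP7A is the copper-exporting ATPase of the Golgi, which loads secreted copper enzymes and removes excess copper from the cell, and SLC45A4 is a membrane transporter of the solute carrier class.

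The library totals ran from 31384794 to 44130093 reads. Values are in CPM, reads per 1000000 reads counted in genes. limma was run on log2(CPM + 1) over the 12710 genes that averaged 1 CPM or more, and a gene was called at an adjusted p under 0.05. Pml itself gave 238 and 228 CPM in the wild-type libraries against 78.7 and 89.7 CPM in those of the knockout. The 8 embryonic stem cell markers summed to between 6485 and 6536 CPM in wild type, with knockout sums of 6445 and 6503 CPM. Of these 8, Zfp42 fell from 812 ± 21.6 to 674 ± 29.9 CPM (limma adjusted p = 0.00251) and the others were not called. The 8 fibroblast or feeder markers summed to 60.0 to 62.4 CPM in wild type and 64.9 to 65.8 CPM in the knockout, most of it Fbln1. Of these 8, 4 were tested and 0 called, and Dcn was at 0 in all 4 libraries. The 4 Y-linked genes examined summed to 272 and 276 CPM in wild type, with knockout sums of 12.3 and 13.0 CPM, so the libraries also differ by genotype in Y-chromosome expression. The label of wild-type library 2 names a DNA library kit alone, whereas the others name an RNA kit (that of knockout library 2 names both), and values without that library are given below.

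Of the 7 genes, 6 were expressed in every library at about 39 to 142 CPM and were tested, and 0 of these 6 differed between the genotypes by limma. Over all tested genes 5.41% were called, 1.95% as higher and 3.45% as lower in the knockout. On recovered reads the edgeR quasi-likelihood test (4.19% of all genes called) and DESeq2 (3.76%) also called 0 of them. The authors' deposited table, with 3.8% of all genes at a false discovery rate under 0.05, holds 0 of them there. Of the 6 genes 1 (Slc45a4) had an unadjusted limma p under 0.05, against 19.3% of all tested genes. The fitted log2 fold changes (knockout minus wild type) ran from -0.04 for Por to 0.13 for Slc45a4, with a median of 0.08, beside a median of -0.0029 over all tested genes. The median size of the change, whatever its sign, was 0.08 for the 6 genes and 0.09 for all tested genes. The remaining gene, Xdh, had at most 2 reads in a library and was below the filter. In such bulk samples fewer expressing cells and less RNA per cell cannot be told apart.

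**Figure D1:**
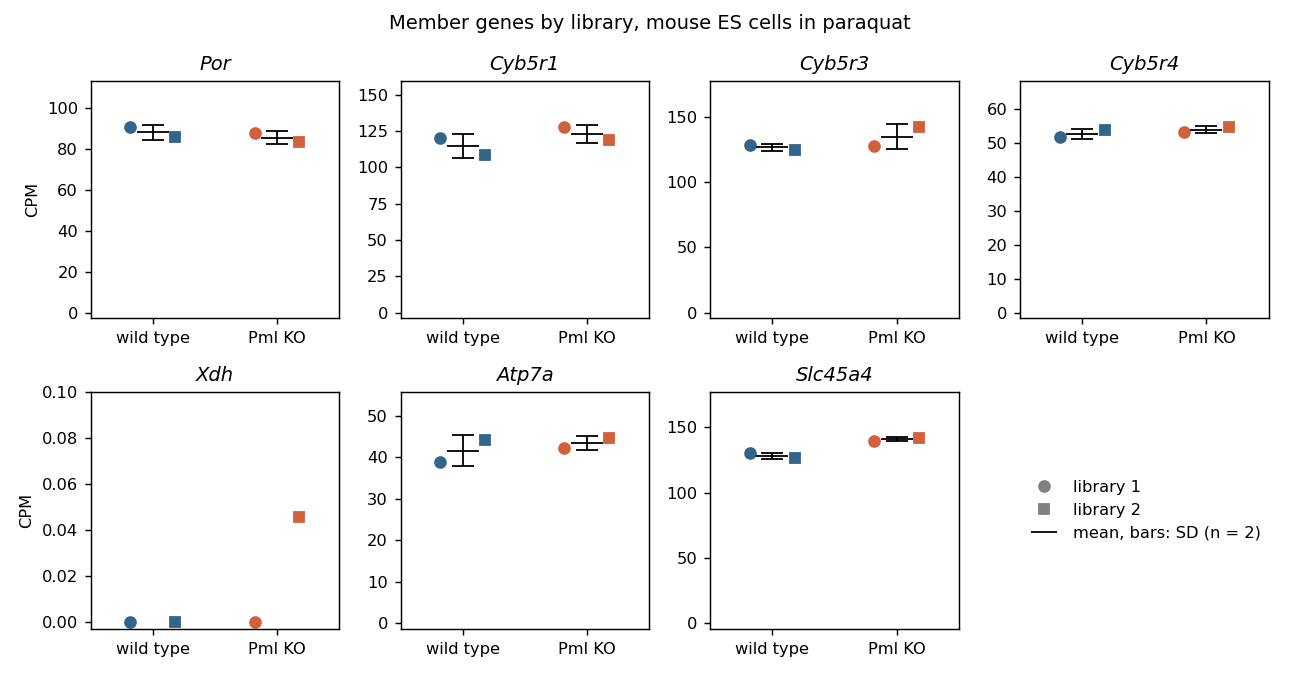
Expression in CPM (vertical axes, each from 0) of the 7 genes in the 2 wild-type and 2 Pml knockout libraries, with the mean and SD of each genotype except for Xdh, whose single value above 0 rests on 2 reads. The genotypes overlap in each expressed gene except Slc45a4, where both knockout libraries lie above both wild-type libraries. Over all tested genes 49.3% did not overlap, in either direction.

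Por encodes the endoplasmic reticulum flavoprotein that carries electrons from NADPH to cytochromes P450. The wild-type libraries held 90.4 and 85.5 CPM of it, those of the knockout 87.6 and 83.1 CPM. The 4 values interleave, and the genotype means, 88.0 ± 3.49 and 85.3 ± 3.19 CPM (SD, n = 2), differ by less than the libraries of a genotype do. The log2 fold change was -0.04 (SE 0.056, limma adjusted p = 0.734), with a 95% interval from -0.16 to 0.08, which spans a knockout level 10.7% lower to 5.41% higher. These intervals are pointwise and not adjusted for the number of genes tested. RefSeq (GRCm38.p6) places Por on chromosome 5 from 135670040 to 135735326 and lists the noncoding Gm40345 and the pseudogene Gm16061 within that span. The sources used here do not say whether strand was used in counting, so reads of these loci could not be told apart from Por.

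Cyb5r3 and Cyb5r1 are membrane-bound NADH-cytochrome b5 reductases. The product of Cyb5r3 supplies electrons, through cytochrome b5, to fatty acid desaturation and sterol synthesis, and in red cells it reduces methemoglobin. Cyb5r3 measured 129 and 125 CPM in the wild-type libraries against 128 and 142 CPM without Pml. Knockout library 2 alone was high, and the other 3 libraries lay close together. The means were 127 ± 2.55 and 135 ± 9.92 CPM, a log2 fold change of 0.09 (SE 0.055, limma adjusted p = 0.420) with an interval from -0.03 to 0.21. For Cyb5r1 the wild-type libraries gave 121 and 109 CPM and the Pml-/- libraries 128 and 119 CPM. Here wild-type library 2 was the lowest, and knockout library 2 fell below wild-type library 1, so that the genotypes overlap. The means were 115 ± 8.41 and 123 ± 6.15 CPM, a log2 fold change of 0.10 (SE 0.059, limma adjusted p = 0.360) with an interval from -0.02 to 0.23.

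Cyb5r4 encodes a soluble reductase of the endoplasmic reticulum in which a cytochrome b5 domain and a cytochrome b5 reductase domain are joined in a single chain. Its levels were 51.7 and 53.7 CPM with Pml, and 53.2 and 54.6 CPM without. The 4 values interleave. The means, 52.7 ± 1.39 and 53.9 ± 1.00 CPM, differed by 2.27% (log2 fold change 0.03, SE 0.061, limma adjusted p = 0.831, interval -0.10 to 0.16). Cyb5r4 lies on chromosome 9, as Pml does, from 87022008 to 87077774 (GRCm38.p6).

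Xdh encodes xanthine oxidoreductase, a molybdenum flavoenzyme of purine breakdown that makes urate and, in its oxidase form, superoxide. Knockout library 2 held 2 reads of it, and the other 3 libraries held 0. With 31384794 to 44130093 reads per library, a count of 0 allows a level of up to 0.0956 CPM in wild-type library 1, 0.0680 CPM in wild-type library 2 and 0.0786 CPM in knockout library 1 (a limit of 3 reads, which covers counting error only). No fold is given, since both genotypes lie at or under that limit. Its relatives, the aldehyde oxidases Aox1, Aox3 and Aox4, were all detected at low levels. With wild-type values before knockout values, Aox3 gave 6.69 and 5.85 against 10.2 and 9.79 CPM, Aox1 1.94 and 1.72 against 2.57 and 1.67 CPM, and Aox4 2.23 and 2.11 against 1.44 and 1.49 CPM. Of these Aox3 rose in the knockout (1.60-fold, a log2 difference of 0.60 with SE 0.12, limma adjusted p = 0.00801). That call held without any 1 of the 4 libraries and ended with no filter on low values (adjusted p = 0.068).

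Atp7a had 38.9 and 44.2 CPM in the wild-type pair and 42.2 and 44.6 CPM in the Pml-/- pair. Wild-type library 1 was the low value, and the other 3 lay within a few CPM of each other. The means were 41.6 ± 3.73 and 43.4 ± 1.68 CPM, a log2 fold change of 0.06 (SE 0.074, limma adjusted p = 0.704) with an interval from -0.09 to 0.22, the widest of the 6. Its lowest library held 1222 reads, for which counting alone gives a relative error of 2.86% in that library. Atp7a is X-linked (chromosome X, 106027224 to 106128161, GRCm38.p6). The 450 other tested genes of that chromosome had a median log2 fold change of 0.03, and 7.78% of them were called.

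Slc45a4 was the gene of the group with the largest fitted difference. Wild-type cells gave 130 and 126 CPM and Pml-/- cells 140 and 142 CPM, so both knockout libraries lay above both wild-type libraries, as they did for 23.8% of all tested genes. The means were 128 ± 2.50 and 141 ± 1.51 CPM, a difference of 9.74% (log2 fold change 0.13, SE 0.048). The pointwise 95% interval, 0.03 to 0.24, lies above 0, but the gene did not pass the test over all genes (limma, unadjusted p = 0.0144, adjusted p = 0.132). Of all tested genes 67.9% had a smaller fitted change. In the authors' deposited table Slc45a4 has a log2 fold change of -0.14 (wild type over knockout), a p-value of 0.0219 and a false discovery rate of 0.251. The gene lies on chromosome 15 (73577418 to 73645757, GRCm38.p6), as does Cyb5r3 (83153495 to 83176440), and the 490 other tested genes of that chromosome had a median of -0.02.

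**Figure D2:**
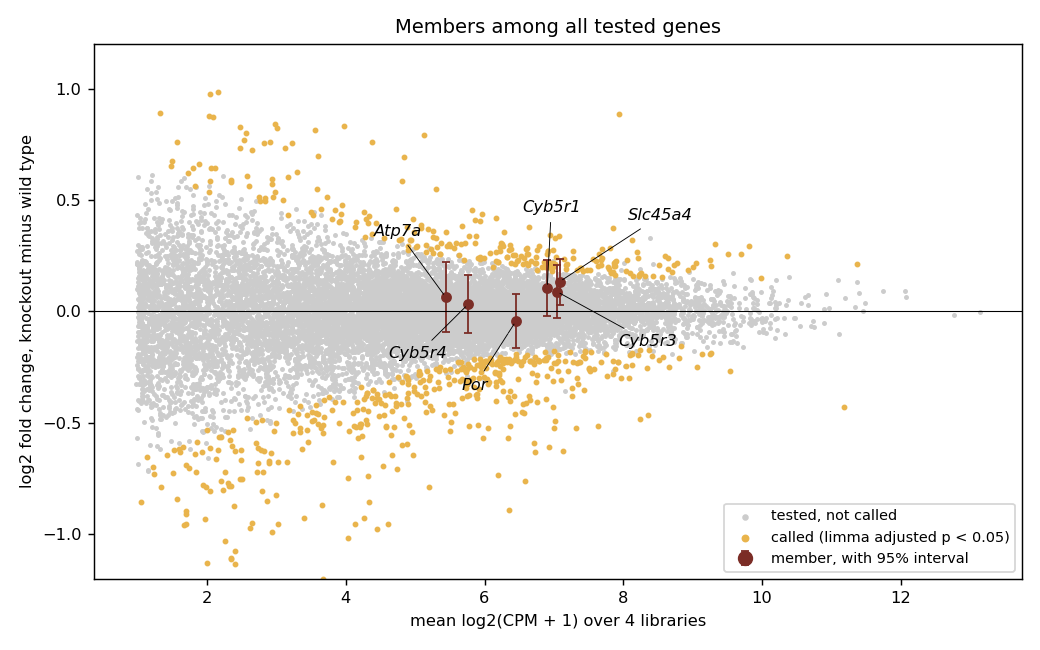
Each point is a tested gene, with its mean log2(CPM + 1) over 4 libraries on the horizontal axis and its log2 fold change (knockout minus wild type) on the vertical axis, which stops at 1.2 in either direction and leaves out 25 genes. The 6 tested members, drawn with 95% intervals, lie between -0.04 and 0.13 inside the cloud of genes that were not called.

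The signs of these small differences depended in part on single libraries. Of the 6 genes 5 had a fitted change above 0, as did 49% of all tested genes. The sign of Atp7a turned without wild-type library 1 (-0.03, limma adjusted p = 0.953), and Por was at -0.0035 without that library. Without wild-type library 2, the library whose label names the DNA kit, the values were -0.08 for Por, 0.03 for Cyb5r1, 0.07 for Cyb5r3, 0.06 for Cyb5r4, 0.15 for Atp7a and 0.11 for Slc45a4. Without knockout library 2 Cyb5r3 was at 0.01, and without knockout library 1 at 0.16 (limma adjusted p = 0.098). Slc45a4 moved least, between 0.11 and 0.15 over the 4 fits, and none of those fits called it (limma adjusted p = 0.147 to 0.430).

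**Figure D3:**
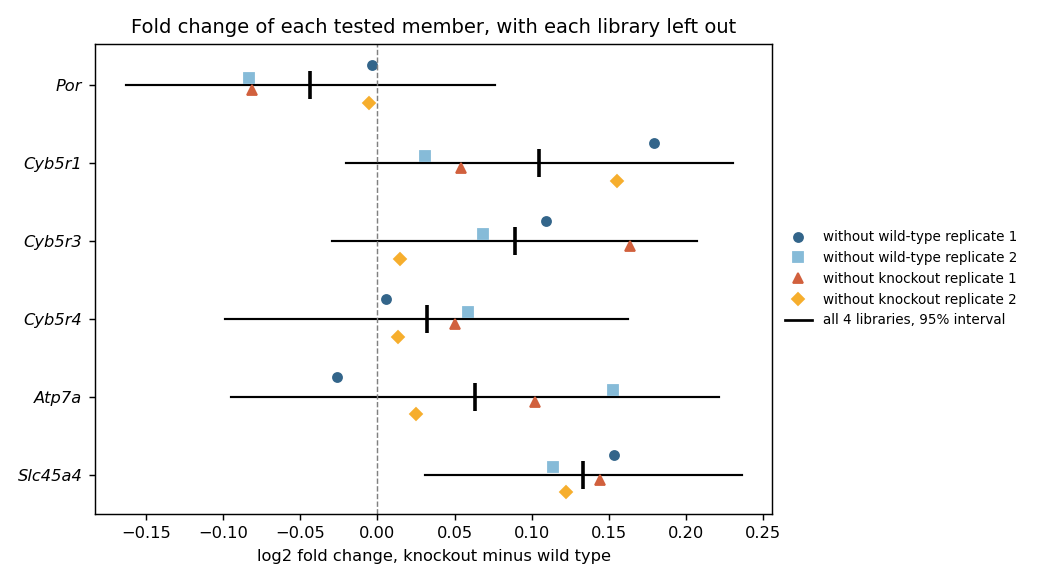
Log2 fold change (knockout minus wild type, horizontal axis) of each tested member with all 4 libraries (tick and line, 95% interval) and with each library left out in turn (symbols). The symbols of Slc45a4 stay between 0.11 and 0.15, whereas those of Atp7a run from -0.03 to 0.15 and those of Cyb5r3 from 0.01 to 0.16.

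The genes around the members were examined as lists. Of the 25 genes named from these lists and from the members' surroundings that were called, 18 lost the call with no filter on low values; Gsr, Gpd2, Sco1, Tfrc, Fkbp6, Hspb1 and Btg2 kept it. A list of 29 other flavoprotein reductases and oxidases, which also held the ferredoxin genes Fdx1 and Fdx1l, had 25 tested genes. Of these 3 fell and 1 (Aox3, above) rose, or 16% beside 5.41% of all tested genes, with a median log2 fold change of -0.09. Gsr, glutathione reductase, fell from 146 ± 3.19 to 121 ± 6.16 CPM, and Nqo1, a quinone reductase that transfers electrons in pairs, from 40.1 ± 0.50 to 32.7 ± 2.73 CPM. Gpd2, the mitochondrial glycerol-phosphate dehydrogenase, fell from 124 ± 0.18 to 107 ± 1.52 CPM (a log2 difference of -0.22 with SE 0.049, limma adjusted p = 0.0165). Nqo1 was not called once wild-type library 1 or knockout library 1 was left out (highest adjusted p = 0.176), and Gpd2 was lost on leaving out wild-type library 1 or 2 (highest adjusted p = 0.072). This left 2 of the list called without wild-type library 1. Gsr and Nqo1 lie on chromosome 8, whose 681 tested genes had a median of -0.06 and 8.81% of calls. The part of that shift in their values was not tested. The remaining cytochrome b5 reductase genes stood low and were not called: Cyb5r2 at 6.72 and 5.82 CPM in wild-type cells against 7.26 and 5.44 CPM in the knockout, and Cyb5rl at 2.29 and 1.63 against 2.96 and 2.29 CPM.

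A list of electron acceptors of cytochrome P450 oxidoreductase, which also held Pgrmc1 and Pgrmc2, had 17 of 26 genes tested. Of these 2 fell and 1 rose (17.6% called beside 5.41% of all tested genes), with a median of -0.09. Cyp7b1, an oxysterol hydroxylase, fell from 7.42 ± 0.05 to 4.25 ± 0.29 CPM (1.75-fold, a log2 difference of -0.68 with SE 0.13, limma adjusted p = 0.00553), a call that held without any 1 of the 4 libraries and ended with no filter on low values (adjusted p = 0.0593). Cyp20a1, a P450 of unknown substrate, fell from 24.5 ± 0.72 to 18.4 ± 1.01 CPM, and Sqle, squalene epoxidase, rose from 134 ± 2.43 to 156 ± 4.21 CPM. Cyp20a1 was not called without knockout library 2 (adjusted p = 0.0997), nor Sqle without that library or wild-type library 1 (highest adjusted p = 0.118), and in each of these 2 fits 2 genes of the list were called. On the cytochrome b5 side, which the Cyb5r reductases feed, 2 of 13 tested genes rose and 0 fell (15.4% beside 5.41% of all tested genes), with a median of 0.07. Both are stearoyl-CoA desaturases: Scd1 went from 141 ± 12.6 to 170 ± 5.71 CPM and Scd2 from 763 ± 71.9 to 911 ± 43.5 CPM. Neither was called once wild-type library 1 or knockout library 2 was left out (highest adjusted p = 0.152 and 0.183), which left 0 of the list called, and DESeq2 did not call Scd2 (adjusted p = 0.305). The cytochrome b5 genes Cyb5a and Cyb5b were not called, at 57.5 and 56.0 against 51.3 and 54.9 CPM and at 215 and 214 against 210 and 216 CPM.

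Around Atp7a, 18 of 24 genes of copper uptake, delivery and export were tested. Of these 3 fell and 1 rose (22.2% called beside 5.41% of all tested genes), with a median of -0.02. The copper importer Slc31a1 was at 56.7 and 55.8 CPM in wild-type cells against 60.7 and 62.3 CPM, and Atox1, the chaperone that hands copper to ATP7A, at 60.0 and 59.1 against 54.2 and 55.2 CPM. Neither was called. The genes that fell were Sco1 and Cox17, which deliver copper to cytochrome c oxidase (from 42.4 ± 1.58 to 33.1 ± 2.17 CPM and from 68.9 ± 1.16 to 58.8 ± 2.03 CPM), and Steap1, of the metalloreductase family (from 10.4 ± 1.10 to 7.12 ± 1.47 CPM). Mt3, a metallothionein, rose from 1.94 ± 0.04 to 3.67 ± 0.53 CPM. None of these calls held in all 4 fits that leave out a library. Sco1 was lost without knockout library 2 (adjusted p = 0.0843), Steap1 on leaving out library 1 of either genotype (highest adjusted p = 0.258), Mt3 without either knockout library (highest adjusted p = 0.152) and Cox17 without each of the 4 (highest adjusted p = 0.195). From 1 to 3 of the list were called in those fits, with 1 without knockout library 2 and 2 without wild-type library 1 or knockout library 1.

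Most copper enzymes that ATP7A loads were little expressed, and 6 of 15 were tested. Of these 2 were called (33.3% beside 5.41% of all tested genes), with a median log2 fold change of 0.06. Loxl2, of the lysyl oxidase family, rose from 1.66 ± 0.09 to 3.09 ± 0.26 CPM, and Pam, which amidates peptides, fell from 13.8 ± 0.08 to 10.3 ± 1.02 CPM. Loxl2 was called only with wild-type library 1 and both knockout libraries present (highest adjusted p otherwise 0.214), and Pam only with knockout library 2 and both wild-type libraries present (0.277). Without wild-type library 1 or knockout library 2, 0 of the 6 were called. Of the transporters listed with Slc45a4, 11 of 15 were tested. Here 1 fell (9.09% beside 5.41% of all tested genes), with a median of -0.08. That gene was Abcb1b, a drug-efflux pump of the P-glycoprotein class, which fell from 63.8 ± 0.32 to 53.8 ± 0.99 CPM. Its call ended on leaving out knockout library 2, wild-type library 1 or wild-type library 2 (up to an adjusted p of 0.105). The SLC45 relatives Slc45a1 and Slc45a3 were at 1.31 and 1.29 against 1.44 and 2.01 CPM and at 6.28 and 7.05 against 6.16 and 6.31 CPM, and neither was called.

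Of the genes of purine catabolism and of the molybdenum cofactor that Xdh needs, 17 of 23 were tested and Aox3 alone was called (5.88%, with 2 called without wild-type library 2). Hprt, the purine salvage gene that is disrupted in the widely used E14Tg2a subline, was near absent, with 23 and 20 reads in wild-type libraries 1 and 2 and with 16 and 19 where Pml was disrupted. A list of NADPH supply, on which Por draws, also held genes whose products do not make NADPH themselves, such as Tkt and Nadk. Of its 22 genes 21 were tested and 1 fell (4.76%), with a median of -0.07. This was Me1, malic enzyme, from 55.4 ± 0.06 to 46.5 ± 1.04 CPM, and its call ended without each of the 4 libraries in turn (highest adjusted p = 0.109). G6pdx, the entry enzyme of the pentose phosphate pathway, was not called, at 69.0 and 76.9 CPM in wild-type cells against 73.8 and 79.9 CPM. NADPH oxidases, which make superoxide without paraquat, had 5 of 14 genes above the filter. By limma, edgeR and DESeq2 0 of them were called, and 0 had an unadjusted limma p under 0.05. Among the most abundant were Cyba at 17.6 and 17.7 against 13.4 and 17.7 CPM and Duox1 at 2.77 and 2.86 against 3.07 and 3.64 CPM. Of 15 tested genes of lipid peroxidation and ferroptosis, in which Por and Cyb5r1 also take part, 1 was called (6.67%). Tfrc, the transferrin receptor, rose from 574 ± 48.6 to 706 ± 0.07 CPM (a log2 difference of 0.30 with SE 0.051, limma adjusted p = 0.00288), and the call held without any 1 of the 4 libraries.

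**Figure D4:**
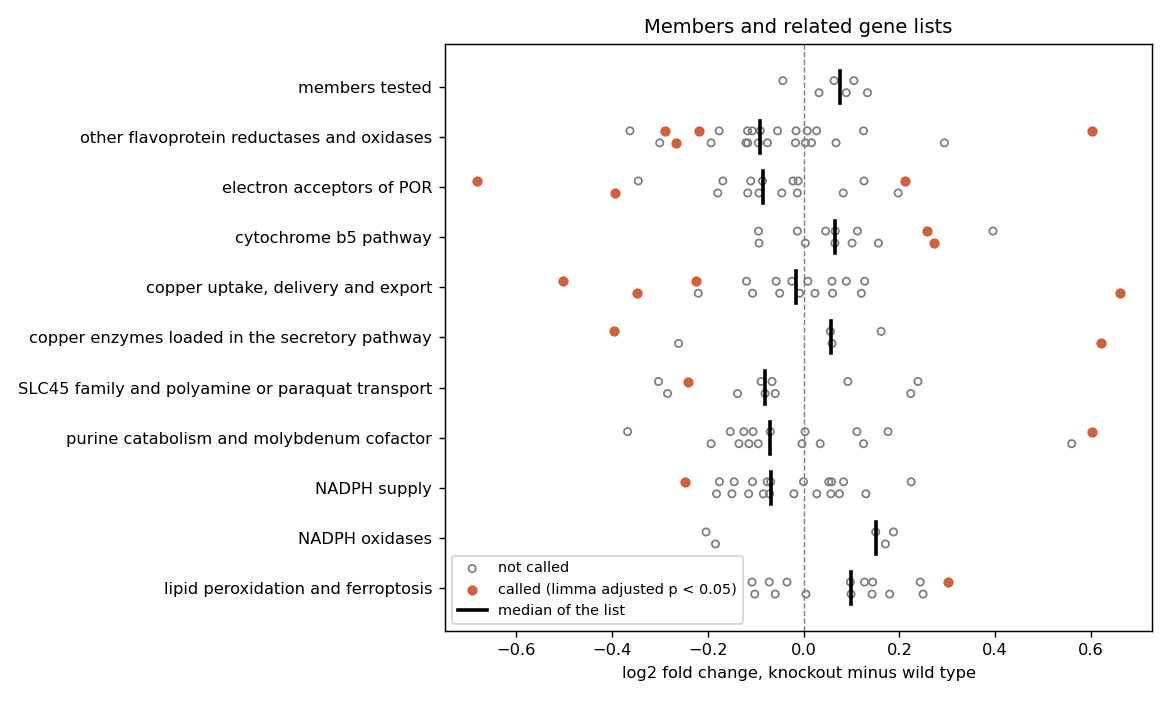
Log2 fold change (knockout minus wild type, horizontal axis) of the 6 tested members and of the tested genes of 10 related lists (rows); filled points were called by limma, and black ticks mark each row's median. The members span -0.04 to 0.13 with none called, while called genes of the lists reach -0.68 (Cyp7b1) and 0.66 (Mt3).

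The chromosomal surroundings of the 7 genes were examined as well. Within 500 kb of a member, 69 genes were tested and 8 called, or 11.6% beside 5.41% of all tested genes and 4.40% to 7.78% on the chromosomes of the members, and the median log2 fold change of these neighbours lay between -0.05 and 0.03 for the 7 places. Around Por, Fkbp6 fell from 37.8 and 33.1 CPM to 22.1 and 24.0 CPM (a log2 difference of -0.60 with SE 0.085, limma adjusted p = 0.00069), the small heat shock gene Hspb1 fell, and Hip1 rose. Beside Cyb5r1, Btg2 fell and Rabif rose. Me1 lies beside Cyb5r4. Pgk1, of glycolysis, rose beside Atp7a, and Ptp4a3, a phosphatase gene, fell beside Slc45a4 while Slc45a4 itself was fitted higher. The calls of Fkbp6, Hspb1 and Btg2 held without any 1 of the 4 libraries. Those of Hip1 and Rabif were lost on leaving out knockout library 2 or wild-type library 1 (up to an adjusted p of 0.250 and 0.0996), that of Pgk1 without knockout library 1, wild-type library 1 or wild-type library 2 (0.242), that of Ptp4a3 without wild-type library 1 or either knockout library (0.316), and that of Me1 as given above.

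Genes whose profile over the 4 libraries was most like that of a member were found by the distance between log2(CPM + 1) values centred on their mean, where a smaller distance is a closer match. Among the 3 closest were Zbtb3, BC048403 and Ilkap for Por, Gstm5 and Unc13d for Cyb5r1, Hibadh, Selt and Cops7a for Cyb5r3, Ube4b, Pum2 and Tmem222 for Cyb5r4, and Onecut2 and Suv420h1 for Atp7a. For Slc45a4 they were Syde2, Pgrmc2 and Gnpda2. With 4 libraries such matches are common: 3.89% of all tested genes lay within 0.05 of Cyb5r4, 2.61% of Por, 1.86% of Slc45a4, 1.10% of Cyb5r3, 0.47% of Atp7a and 0.46% of Cyb5r1.

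RefSeq start-site sequences (GRCm38.p6) were at hand for 4 of the 7 genes, and those of Por, Atp7a and Cyb5r1 are printed because they show how different the start-site sequences of these expressed genes are. Each is the 250 bases before the start site that RefSeq's table gives, on the + strand, 5′ to 3′. For Por that start is internal: the window lies inside the Por span given above and overlaps Gm40345 (135685941 to 135689051). Capitals mark a GC box (GGGCGG), an antioxidant response element core (TGACNNNGC) or a metal response element core (TGCACNC or TGCGCNC), each searched on both strands.
Por, chr5:135688895-135689144: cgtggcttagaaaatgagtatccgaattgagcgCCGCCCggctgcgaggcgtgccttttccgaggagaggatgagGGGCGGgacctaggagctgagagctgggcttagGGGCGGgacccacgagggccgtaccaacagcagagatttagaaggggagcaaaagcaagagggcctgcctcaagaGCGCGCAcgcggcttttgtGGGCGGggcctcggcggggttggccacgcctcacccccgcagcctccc
Atp7a, chrX:106026974-106027223: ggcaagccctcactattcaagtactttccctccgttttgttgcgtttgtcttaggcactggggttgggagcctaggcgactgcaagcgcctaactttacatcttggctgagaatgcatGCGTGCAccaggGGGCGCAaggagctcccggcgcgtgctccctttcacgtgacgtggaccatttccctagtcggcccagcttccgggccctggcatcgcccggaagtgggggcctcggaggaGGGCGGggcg
Cyb5r1, chr1:134405531-134405780: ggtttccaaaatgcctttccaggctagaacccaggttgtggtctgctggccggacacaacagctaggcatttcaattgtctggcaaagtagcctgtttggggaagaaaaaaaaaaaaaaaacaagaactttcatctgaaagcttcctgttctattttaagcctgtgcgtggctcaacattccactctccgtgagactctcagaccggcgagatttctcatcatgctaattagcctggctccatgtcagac
The Por window was 65.6% G and C and held 4 GC boxes and 1 metal response element core. The Atp7a window was 62.4% G and C, with 1 GC box and both forms of the metal response element core. The Cyb5r1 window was 46.0% G and C, with a run of A bases and no match to any of these motifs. The Cyb5r4 window, not printed, was 60.4% G and C. It held 2 GC boxes and an antioxidant response element core that overlaps 1 of them. Over 32851 windows of the same length the median was 52.4% G and C. A GC box was found in 32.7% of those windows, an antioxidant response element core in 10.2%, and the metal response element cores in 10.4% (TGCACNC) and 12.5% (TGCGCNC). These are matches of letters only, and binding was not measured.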

How the data were processed

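Per the submitters' processing notes, cutadapt, TopHat and edgeR were used on the RNA reads, with mm10 as the genome. Their versions, the annotation, and how strand and multi-mapping reads were handled are not stated in these sources. The deposited table pairs each gene symbol with 4 CPM values, 1 per library, and with results of the authors' own test: a log2 fold change, an average log2 CPM, and a p-value with its false discovery rate. Each deposited CPM column sums to 1000000 and is made of whole reads (100% of values within 0.001 reads), which gave the totals and the reads for count tests. The chromatin samples of the series (2) were not analysed here.

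limma-trend (limma 3.58.1, R 4.3.3) was run on log2(CPM + 1) for genes averaging 1 CPM or more. The model held genotype alone, with Benjamini-Hochberg adjustment over 12710 genes. Its code was also run on simulated counts. Their spread between libraries was set and not estimated from these data, so that run does not show how the test performs here. Alternatives were pseudocounts of 0.5 and 2, no filter, TMM scaling, edgeR 4.0.16 (quasi-likelihood) and DESeq2 1.42.0 on recovered reads, the replicate number as a block, and each library left out. The members and lists were chosen with earlier results of these data known. Named were the members, all called genes of each list (or its 3 most abundant), called genes within 500 kb of a member, and the 3 closest profiles, except a few genes that are not reported here; the other list genes given (Aox1, Aox4, Cyb5r2, Cyb5rl, Cyb5a, Cyb5b, Slc31a1, Atox1, Slc45a1, Slc45a3, G6pdx, Hprt) were named after their values were seen. Coordinates come from RefSeq, which matched 24300 of 24421 symbols. Transcript lengths were not used, so where genes are ranked or called low by level, this is in CPM and not corrected for length. Intervals on fold changes are limma's, at 95%.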

Additional observations from a re-analysis of the deposited data

How the results depend on the processing

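No alternative called any of the 6 tested members, and the lowest adjusted p over 66 refits was 0.0936, for Slc45a4 with the replicate number as a block. In 65 of these the direction was that of the fit reported above; the exception was Atp7a without wild-type library 1. Leaving out each library in turn gave log2 fold changes of -0.08 to -0.0035 for Por, 0.03 to 0.18 for Cyb5r1, 0.01 to 0.16 for Cyb5r3, 0.0054 to 0.06 for Cyb5r4, -0.026 to 0.15 for Atp7a and 0.11 to 0.15 for Slc45a4. Over the other 7 settings the members moved by at most a few hundredths, for example 0.13 to 0.14 for Slc45a4. The number of called genes in the whole table, 687, was 298 with no filter on low values, 1198 with the replicate block and 423 to 879 without 1 library; the cause was not tested. Same-numbered libraries share only a number: their deviations correlated at 0.12 across 12710 genes, and with 2 pairs this does not establish a pairing. Of the 25 other named genes that were called, 18 lost the call with no filter on low values, 9 with DESeq2, 3 with edgeR and 2 with TMM scaling. Of the 10 lists, with no filter, 2 genes were called among the flavoproteins, 1 each in copper uptake and lipid peroxidation, and 0 in the other 7. DESeq2 called 1 in copper uptake (edgeR 2), 1 in the cytochrome b5 list and 0 among copper enzymes, transporters and NADPH supply. Leaving out 1 library lost from 6 (wild-type library 2) to 15 (wild-type library 1) of those 25 calls, and 1 named gene that was not called changed sign (Cyba, -0.37 to 0.0048 without 1 library). The 6 tested members had at least 1222 reads in each library; Xdh, with at most 2, was not measurable at this depth.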
